A study of Homo sapiens with 8 samples.

Results

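Small RNA host genes are long noncoding RNA (lncRNA) genes that carry small RNAs in their introns or exons. The 112 hosts described here were GENCODE lncRNA genes on chromosomes 1 to 22 and X named SNHG with a number (small nucleolar RNA host gene), MIR, a name and the ending HG (microRNA host gene), or GAS5, out of 62062 genes annotated on those chromosomes. They fell into 29 snoRNA hosts, GAS5 included, and 83 microRNA hosts. They were chosen by name.

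Chromatin accessibility was measured by FAIRE-seq, in which sheared, formaldehyde-fixed chromatin is extracted with phenol and chloroform, and the DNA that stays in the aqueous phase, depleted of nucleosomes, is sequenced. The cells were U2OS, an osteosarcoma line. The 2 wild-type (WT) clones were WT_4 and WT_5, and the 2 clones knocked out for ZBTB48, a zinc finger protein that binds telomeric TTAGGG repeats and promoters, were KO_C5 and KO_D2. Each clone gave 1 untreated library and 1 library after 250 U/ml interferon gamma (IFNγ), so that WT untreated, WT with IFNγ, KO untreated and KO with IFNγ had 2 libraries each. The labels give 24 hours of IFNγ and the paper a longer time for its FAIRE-seq, so the length is uncertain. With 2 clones a genotype, clonal differences and the deletion cannot be told apart.

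Each library had its own list of peaks with a fold enrichment over the local background, and a −log10 p. For every list, the peaks were ranked by −log10 p, and a peak's percentile is its place in its own list from 0 (weakest) to 100 (strongest). A gene had a promoter peak where a peak lay within 500 bp of any of its annotated transcription start sites (TSS), and its strongest such peak gave its values. The lists held 16730 to 37533 peaks on these chromosomes. The local background of the member peaks was higher in KO lists (median over snoRNA hosts 1.98 to 3.32 fragments) than in WT lists (1.01 to 1.64). This was not particular to the hosts. For protein-coding genes with a promoter peak in all 8 libraries the medians were 1.98 to 3.32 in KO and 1.02 to 1.77 in WT. Of the mesenchymal or bone markers, RUNX2, VIM, FN1 and CDH2 had a promoter peak in all 8 libraries, COL1A1 in 7, SPARC in 5, TWIST1 in 1 and COL1A2 in none. The blood markers PTPRC, CD3E and CD79A, the epithelial markers CDH1, KRT5 and KRT20 and the hepatocyte marker ALB had none in any library, SPI1 had one in 1 library, and EPCAM had one in all 8. The ZBTB48 promoter itself had a peak in all 8 libraries, which says nothing about the deletion.

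A snoRNA host is transcribed and spliced like a messenger RNA, and its debranched introns are trimmed into snoRNAs, which guide the methylation (box C/D class) or pseudouridylation (box H/ACA class) of ribosomal RNA. Several spliced host RNAs, among them that of GAS5, are removed by nonsense-mediated decay, and many start with a run of pyrimidines, the terminal oligopyrimidine (TOP) start shared with ribosomal protein genes. A microRNA host gives a primary transcript that Drosha and DGCR8 cut into a hairpin, which Dicer trims to a mature microRNA, and bases 2 to 8 of that microRNA, the seed, select its targets.

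Of the 29 snoRNA hosts, 25 RefSeq promoters were found, and of the 83 microRNA hosts, 64. A TOP start, taken as a C at the RefSeq start followed without a break by pyrimidines to at least 5 in all, was present in 6 of the 25 snoRNA host promoters (24%), in 3 of 64 microRNA host promoters (4.69%) and in 4.05% of all 27195 RefSeq promoters. The 6 were SNHG4, SNHG5, SNHG12, SNHG18, SNHG19 and SNHG32. Promoters of 8 hosts with a peak in all 8 libraries are shown because their peaks ranked among the strongest of the hosts or separated by treatment. They run from 250 bases before to 50 bases after the RefSeq start (GRCh38.p14), and capitals mark the TOP run, CCAAT boxes on either strand, CACGTG and TATAAA.
SNHG31 promoter, chr2:214809979-214810278, plus strand: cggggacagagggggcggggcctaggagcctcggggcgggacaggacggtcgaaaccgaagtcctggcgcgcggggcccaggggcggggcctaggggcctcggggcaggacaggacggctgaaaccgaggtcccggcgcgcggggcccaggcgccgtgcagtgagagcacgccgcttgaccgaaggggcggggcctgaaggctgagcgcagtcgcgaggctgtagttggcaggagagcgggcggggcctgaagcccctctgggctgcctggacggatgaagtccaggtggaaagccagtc
SNHG19 promoter, chr16:2155309-2155608, minus strand: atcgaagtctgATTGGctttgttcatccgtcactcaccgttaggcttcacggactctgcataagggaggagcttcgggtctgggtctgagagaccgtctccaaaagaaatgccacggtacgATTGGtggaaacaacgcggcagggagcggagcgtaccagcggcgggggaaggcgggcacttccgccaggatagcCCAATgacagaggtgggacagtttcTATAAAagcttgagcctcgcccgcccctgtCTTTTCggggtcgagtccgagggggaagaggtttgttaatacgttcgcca
SNHG30 promoter, chr17:35567864-35568163, plus strand: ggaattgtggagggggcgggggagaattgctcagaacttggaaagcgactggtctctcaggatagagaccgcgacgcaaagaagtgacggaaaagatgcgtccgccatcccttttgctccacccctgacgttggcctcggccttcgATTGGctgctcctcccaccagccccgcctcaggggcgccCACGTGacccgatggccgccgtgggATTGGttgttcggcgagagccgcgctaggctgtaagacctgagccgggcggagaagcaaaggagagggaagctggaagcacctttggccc
SNHG5 promoter, chr6:85678684-85678983, minus strand: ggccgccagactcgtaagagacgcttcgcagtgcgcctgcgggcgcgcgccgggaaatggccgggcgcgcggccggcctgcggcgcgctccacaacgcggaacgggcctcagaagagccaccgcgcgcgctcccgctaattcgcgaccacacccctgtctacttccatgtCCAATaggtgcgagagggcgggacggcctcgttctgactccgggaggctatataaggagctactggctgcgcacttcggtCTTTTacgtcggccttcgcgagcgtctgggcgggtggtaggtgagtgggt
SNHG32 promoter, chr6:31834666-31834965, plus strand: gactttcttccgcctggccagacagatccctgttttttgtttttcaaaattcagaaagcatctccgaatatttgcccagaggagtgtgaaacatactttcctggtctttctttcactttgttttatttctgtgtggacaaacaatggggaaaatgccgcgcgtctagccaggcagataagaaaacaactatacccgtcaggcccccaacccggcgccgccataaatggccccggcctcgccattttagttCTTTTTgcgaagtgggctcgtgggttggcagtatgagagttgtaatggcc
MIRLET7A1HG promoter, chr9:94166008-94166307, plus strand: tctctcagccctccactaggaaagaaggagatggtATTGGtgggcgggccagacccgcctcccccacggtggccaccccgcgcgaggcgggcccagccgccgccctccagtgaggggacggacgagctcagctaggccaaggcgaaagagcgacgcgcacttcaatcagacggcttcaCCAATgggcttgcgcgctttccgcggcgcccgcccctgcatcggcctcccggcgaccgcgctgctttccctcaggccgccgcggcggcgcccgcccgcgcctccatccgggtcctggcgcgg
MIR22HG promoter, chr17:1716161-1716460, minus strand: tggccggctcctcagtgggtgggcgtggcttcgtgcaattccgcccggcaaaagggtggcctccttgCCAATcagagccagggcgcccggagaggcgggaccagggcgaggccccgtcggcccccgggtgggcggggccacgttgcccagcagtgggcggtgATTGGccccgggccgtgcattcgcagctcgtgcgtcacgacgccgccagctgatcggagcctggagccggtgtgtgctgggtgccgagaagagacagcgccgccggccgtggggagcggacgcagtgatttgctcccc
MIR4458HG promoter, chr5:8457437-8457736, plus strand: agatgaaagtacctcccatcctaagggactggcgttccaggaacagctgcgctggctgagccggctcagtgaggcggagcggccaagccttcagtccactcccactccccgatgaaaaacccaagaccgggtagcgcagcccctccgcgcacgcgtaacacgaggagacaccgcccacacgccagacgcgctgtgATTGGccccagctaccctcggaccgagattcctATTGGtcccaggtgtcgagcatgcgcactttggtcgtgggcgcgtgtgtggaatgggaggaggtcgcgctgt

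Both SNHG19 and SNHG5 have the TOP run and a CCAAT box, and SNHG19 adds a TATAAA, whereas SNHG31 holds none of these letters in the window. CCAAT occurred on either strand in 7 of 25 snoRNA host promoters and in 26 of 64 microRNA host promoters, against 35.7% of all promoters. CACGTG occurred in 2 of 25 and 2 of 64, against 7.45% of all. TATAAA occurred in 4 of 25 and 7 of 64, against 12.0%. The telomeric hexamer TTAGGG was present in 1 of 25 snoRNA host promoters (SNHG22) and in 4 of 64 microRNA host promoters, against 8.93% of all promoters, and GTGAGT in 5 of 25 and 8 of 64, against 12.4%. TTCNNNGAA, the core of sites for STAT factors that carry the IFNγ signal, occurred in 1 of 25 and 6 of 64, against 7.89%. Median GC content was 62.3% for snoRNA hosts, 56.3% for microRNA hosts and 58.3% for all RefSeq promoters. The promoters of GAS5, SNHG1 and SNHG22 overlap the untranslated exons of coding genes and are not printed, and SNHG9 is named only.

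Mature microRNAs of the hosts the results turn on are shown with the seed in capitals, grouped by seed. The let-7 seed GAGGUAG occurred in 7 hosts, of which 3 that are described with values in every library carry these.
hsa-let-7a-5p (MIRLET7A1HG): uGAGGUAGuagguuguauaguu
hsa-let-7d-5p (MIRLET7A1HG): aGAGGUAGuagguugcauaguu
hsa-let-7f-5p (MIRLET7A1HG): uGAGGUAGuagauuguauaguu
hsa-miR-4458 (MIR4458HG): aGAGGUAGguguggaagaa

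In MIR100HG the let-7a sequence occurs again. A further pair of seeds is each shared by 2 mature microRNAs, the miR-181 pair of MIR181A1HG and MIR181A2HG, and the pair of MIR222HG.
hsa-miR-181a-5p (MIR181A2HG): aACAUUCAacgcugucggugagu
hsa-miR-181b-5p (MIR181A2HG): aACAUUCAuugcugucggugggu
hsa-miR-221-3p (MIR222HG): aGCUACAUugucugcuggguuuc
hsa-miR-222-3p (MIR222HG): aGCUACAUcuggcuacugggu

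The remaining hosts that separated by genotype, by treatment or by presence carry these.
hsa-miR-23a-3p (MIR23AHG): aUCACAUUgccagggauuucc
hsa-miR-27a-3p (MIR23AHG): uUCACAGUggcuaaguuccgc
hsa-miR-24-3p (MIR23AHG): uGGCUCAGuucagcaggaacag
hsa-miR-34a-5p (MIR34AHG): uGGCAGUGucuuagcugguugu
hsa-miR-137-3p (MIR137HG): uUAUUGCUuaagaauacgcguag
hsa-miR-146a-5p (MIR3142HG): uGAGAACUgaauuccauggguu
hsa-miR-9-5p (MIR9-1HG): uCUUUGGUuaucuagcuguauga

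The first question was which hosts lie in open chromatin at all. A promoter peak was present in all 8 libraries for 25 of the 29 snoRNA hosts and for 21 of the 83 microRNA hosts. The same held for 51.2% of 19970 protein-coding genes and for 14.2% of 18644 other lncRNA genes. With only the 5′-most TSS of each gene, the counts were 22 snoRNA hosts and 14 microRNA hosts. No library had a promoter peak for 2 snoRNA hosts and 41 microRNA hosts, while 2 and 21 had one in some libraries.

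**Figure D1:**
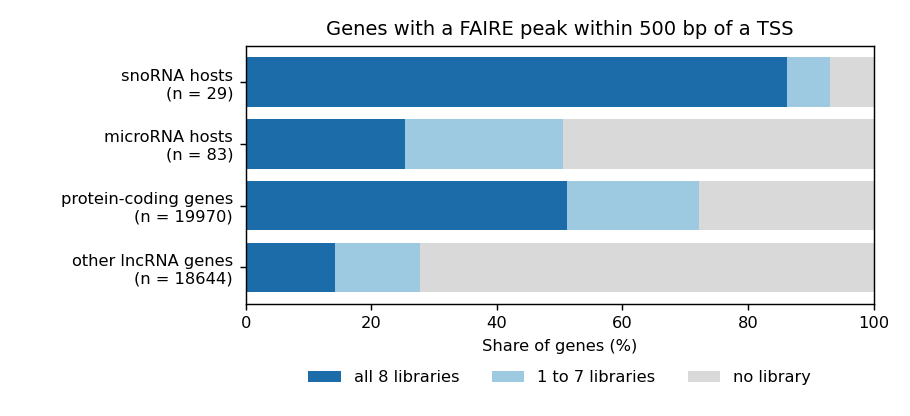
Share of genes (horizontal axis, percent) with a FAIRE peak within 500 bp of a TSS in all 8, in 1 to 7 or in none of the libraries, for snoRNA hosts, microRNA hosts, protein-coding genes and other lncRNA genes. The dark bar reaches 86.2% for snoRNA hosts and 25.3% for microRNA hosts.

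Part of this presence is shared with neighbours. A protein-coding TSS lay within 500 bp of a TSS in 13 of the 29 snoRNA hosts, such as RPS2 beside SNHG9, ZBTB37 beside GAS5 and SLC3A2 beside SNHG1, and a peak there cannot be assigned to one gene of the pair. Among the 16 snoRNA hosts without such a neighbour, 13 had a promoter peak in all 8 libraries (81.3%), and among the 73 microRNA hosts without one, 14 did (19.2%). Of 15156 other lncRNA genes without a coding neighbour, 4.82% did. With a neighbour the counts were 12 of 13 snoRNA hosts, 7 of 10 microRNA hosts and 55.1% of 3488 other lncRNA genes.

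The 25 snoRNA hosts carry 52 annotated snoRNAs or small Cajal body RNAs. GENCODE lists none on the span of GAS5, where RefSeq lists 11. The 2 snoRNA hosts with no peak, SNHG14 and SNHG27, carry 85, nearly all of them in SNHG14, the imprinted transcript of neurons that holds the SNORD115 and SNORD116 clusters. SNHG21, which carries SCARNA15, had a peak in 5 libraries and SNHG3, which carries SNORA73A and SNORA73B, in 7. The 41 microRNA hosts with no peak include, named here after their values were seen, MIR122HG (the hepatocyte miR-122), MIR223HG (myeloid cells), MIR155HG (lymphoid cells), MIR302CHG (pluripotent stem cells), MIR205HG (epithelium) and MIR133A1HG (muscle). MIR142HG (blood cells) had a peak in 1 library and MIR200CHG (epithelium) in 1. Other such hosts did have peaks, with MIR137HG (neuronal differentiation) in 6 libraries and MIR1-1HG (muscle) in 4. Presence by cell lineage was not tested.

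The peaks of hosts and of other genes present in all 8 libraries are set side by side here by their medians, with no test. The median over hosts of the mean percentile was 82.5 for the 25 snoRNA hosts (quartiles 75.4 and 89.4) and 77.5 for the 21 microRNA hosts (63.2 and 86.3). It was 76.9 for 10217 protein-coding genes and 76.3 for 2654 other lncRNA genes. The median of the mean fold enrichment was 35.7 for snoRNA hosts, 32.1 for microRNA hosts and 29.1 for protein-coding genes. The summit lay within 250 bp of a TSS in 24 of 25 snoRNA hosts and 17 of 21 microRNA hosts, at a median distance of 22.5 and 56.5 bp, and the median peak width was 589 and 593 bp.

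The strongest snoRNA host peak belonged to SNHG9 (carrying SNORA78) on chromosome 16. In the order untreated WT_4 and WT_5, IFNγ WT_4 and WT_5, its percentiles were 99.5, 99.3, 97.6 and 99.6, and in the same order for KO_C5 and KO_D2 they were 94.6, 98.5, 98.2 and 97.0. SNHG31 (SNORA70I) had 97.0, 97.5, 96.8 and 97.8 in WT and 98.9, 98.1, 98.6 and 96.0 in KO. These 2 peaks lie beside the coding genes RPS2 and BARD1 and stayed at or above a percentile of 94.6 in every list.

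SNHG19 (SNORD60), beside the coding gene TRAF7 and with the TOP start shown above, had percentiles of 98.5, 98.8, 95.0 and 98.1 in WT. In KO they were 90.0, 95.9, 95.2 and 95.8. SNHG5 (SNORD50B), beside a coding gene without a symbol, had 87.9, 94.1, 83.1 and 93.1 in WT and 91.8, 87.7, 91.0 and 87.3 in KO. In both, WT and KO libraries overlapped. Across the 6 hosts with a TOP start the median range between the highest and lowest library was 10.4 percentile points, against 28.2 for the 15 hosts with another start and a peak in all 8. Their median mean percentiles were 86.0 and 80.2. The ranges of the groups overlapped, with SNHG18 of the 6 at 47.8 points and SNHG31 of the 15 at 2.93. GAS5, counted among the 15, had a range of 28.2. Its RefSeq promoter window does not overlap its strongest peak, so the start class of GAS5 does not describe that peak. Over all genes the median range was 22.7 with a TOP start and 22.5 without.

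SNHG1, host of SNORD22, SNORD25, SNORD26, SNORD27, SNORD28 and SNORD30, had percentiles of 82.2, 97.5, 82.2 and 98.8 in WT and 75.6, 94.4, 97.1 and 97.1 in KO. GAS5, whose spliced RNA accumulates when growth stops, had 79.8, 95.0, 67.3 and 94.4 in WT and 71.9, 86.8, 90.5 and 95.5 in KO. Both WT_4 libraries and the untreated KO_C5 library were low for both genes, and the WT_5 and IFNγ-treated KO libraries were high. The same libraries were low for SNHG17 (5 SNORA71 copies), at 58.9 and 52.3 in WT_4 and 48.0 in untreated KO_C5 against 82.5 and 84.6 in WT_5, and for SNHG20, at 54.0 and 70.7 in WT_4 and 35.4 in untreated KO_C5 against 89.6 and 93.4 in WT_5. SNHG17 and SNHG20 were named after their values were seen.

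WT_5 exceeded WT_4 in its mean percentile at 21 of the 25 snoRNA hosts and at 17 of the 21 microRNA hosts, and at 79.7% of all 13361 genes with a promoter peak in every library. KO_D2 exceeded KO_C5 at 16 of 25 snoRNA hosts and at 3 of 21 microRNA hosts, against 36.0% of all genes. No test was made of these counts.

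**Figure D2:**
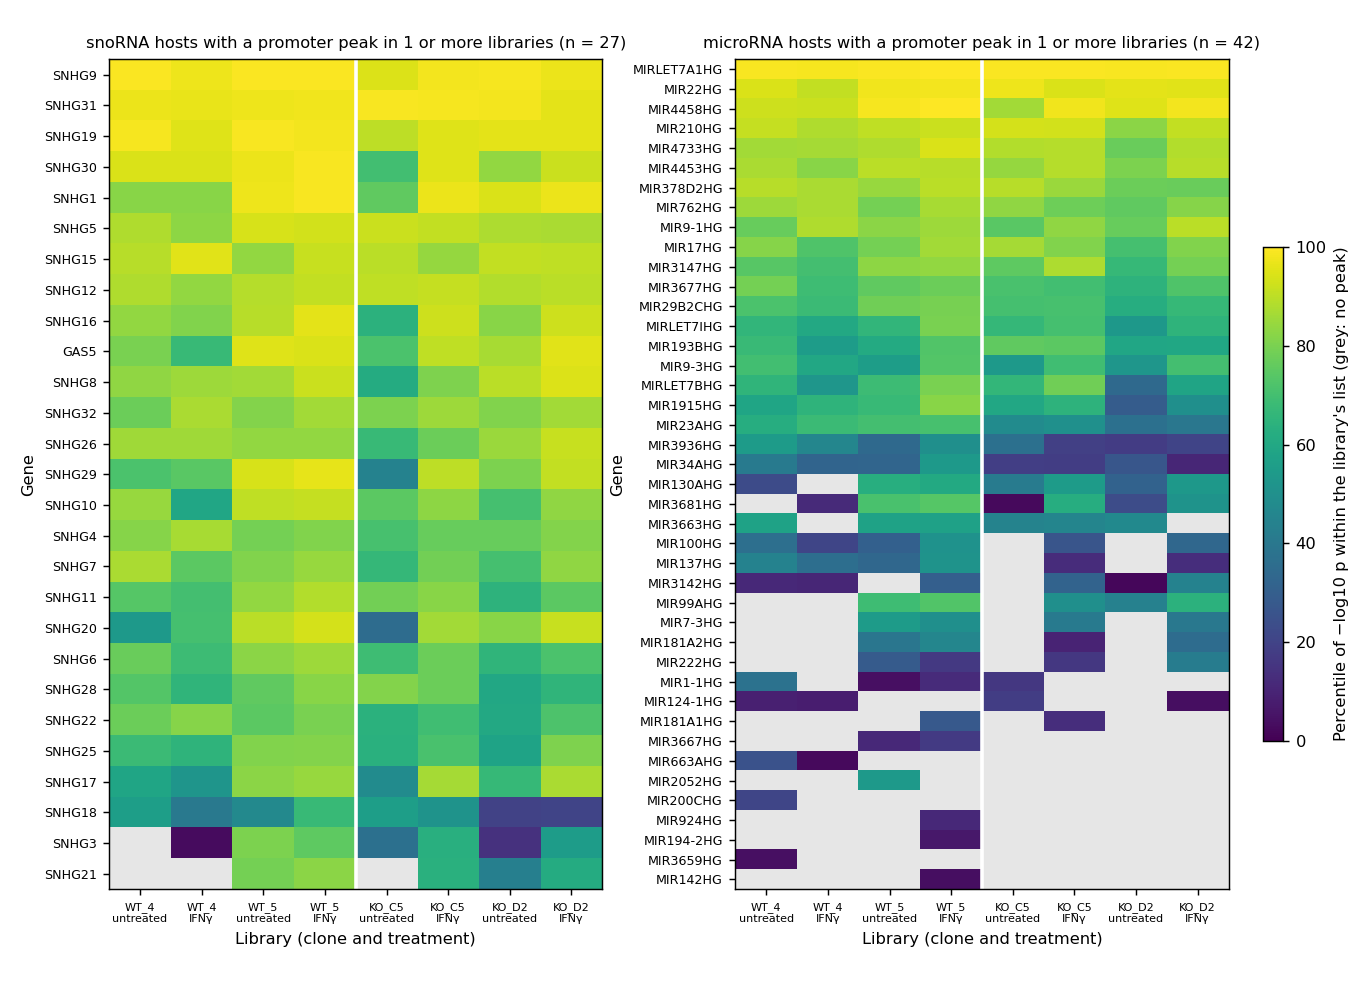
Percentile of −log10 p (colour, 0 to 100; grey, no promoter peak) of the strongest promoter peak of each host (rows) in each library (columns, by clone and treatment), for 27 snoRNA hosts (left) and 42 microRNA hosts (right) with a peak in at least 1 library. Most snoRNA hosts are filled in every column, whereas the microRNA hosts fill 26 or 27 cells in IFNγ-treated WT_4 and the untreated KO libraries and 31 to 37 in the others.

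Among microRNA hosts the strongest peak was that of MIRLET7A1HG, which carries let-7a, let-7f and let-7d. Its percentiles were 98.9, 99.5, 98.5 and 99.6 in WT and 99.4, 99.0, 99.3 and 99.3 in KO, with fold enrichments of 59.7 to 129. MIR4458HG, with the same seed, had 92.3, 98.6, 92.1 and 99.7 in WT and 86.1, 94.9, 98.0 and 98.2 in KO. The other hosts of the let-7 seed, named after their values were seen apart from MIR100HG, were MIRLET7IHG and MIRLET7BHG with a peak in all 8 libraries, MIR100HG with a peak in 6, MIR99AHG in 5 and MIR4500HG in none. Hosts that share a seed thus ranged from the top of every list to no peak at all.

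MIR22HG (miR-22), beside WDR81, had percentiles of 94.2, 97.8, 90.9 and 98.1 in WT and 97.3, 96.1, 94.4 and 95.3 in KO. MIR210HG, host of the hypoxia-induced miR-210, had 91.2, 90.4, 88.2 and 91.8 in WT and 93.7, 82.7, 93.1 and 90.9 in KO. MIR4733HG, beside NF1, had 86.2, 88.1, 86.5 and 94.4 in WT and 88.3, 77.3, 88.8 and 88.4 in KO. MIR4453HG, next to FBXW7, had 87.2, 89.7, 82.1 and 89.4 in WT and 84.0, 80.2, 88.8 and 89.3 in KO. In each of these 4 the WT and KO libraries overlapped.

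The genotype comparison asked whether host promoters differ in accessibility without ZBTB48. The number of snoRNA hosts with a promoter peak was 26.3 ± 1.06 (SD, n = 2 clones) in WT and 26.8 ± 0.354 in KO. For microRNA hosts it was 32.0 ± 4.24 in WT and 28.8 ± 0.354 in KO, a difference of −3.25 that lay within the WT spread. When every list was cut to its strongest 16730 peaks, the length of the shortest list, the microRNA host difference became 1.

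limma, fitted over all 13361 genes on clone means, called 0 genes between KO and WT at an adjusted p under 0.05 (0% of genes). At an unadjusted p under 0.05 it had 576 genes, 4.31%, among them 4 of the 46 hosts with a peak in all 8 libraries. These were MIR23AHG, MIR34AHG, MIR3936HG and SNHG22, all lower in KO, and MIR3936HG lies outside the rule for named hosts. The median KO minus WT difference was −3.36 percentile points over snoRNA hosts, −3.09 over microRNA hosts and −3.61 over all genes. Below 0 were 19 of 25 snoRNA hosts and 18 of 21 microRNA hosts, while 21.4% of all genes were above 0. This downward shift depended on the peaks ranked. Among only the promoter peaks present in all 8 libraries, the median over all genes was −0.163. On log2 fold enrichment limma called 30 genes, 0.225%, all lower in KO.

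MIR23AHG, on chromosome 19 with 1 annotated TSS and its summit at −19.5 bp from it (upstream), carries miR-23a, miR-27a and miR-24. Its percentiles were 62.5, 69.96, 68.0 and 71.0 in WT and 48.3, 37.0, 50.1 and 39.5 in KO. Its fold enrichments were 26.0, 21.2, 24.7 and 24.3 in WT and 12.3, 10.7, 12.3 and 8.23 in KO. Every WT library lay above every KO library on both scales. The difference was −24.1 ± 5.63 percentile points (SE; limma, unadjusted p = 0.0149, adjusted p = 0.9999), and the exact permutation test over the 4 clone means gave 0.333, the smallest two-sided p that 6 assignments allow. The local background at this peak ran from 0.621 to 1.02 fragments across the WT libraries and from 1.34 to 2.28 across the KO libraries. The pileup at its summit ran from 39 to 42 and from 24 to 35, so both moved with genotype. Their part in the percentile was not tested.

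MIR34AHG, host of the p53-induced miR-34a, had percentiles of 41.0, 32.6, 32.3 and 53.7 in WT and 18.4, 26.9, 18.0 and 10.7 in KO, which did not overlap. The difference was −21.4 ± 4.18 points (limma, unadjusted p = 0.00833, adjusted p = 0.9999; exact permutation p = 0.333). Its fold enrichment overlapped, at 6.87 to 12.1 in WT and 4.72 to 8.43 in KO. The summit pileups overlapped too, with a lowest value of 15 in either genotype and highest values of 24 (WT) and 20 (KO). Local backgrounds reached up to 1.77 fragments among WT libraries and began at 1.49 among KO libraries. Ranked only among the promoter peaks present in all 8 libraries, the MIR34AHG difference shrank to −0.910 points, whereas that of MIR23AHG was −16.2.

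SNHG22, host of SCARNA17 on chromosome 18, had percentiles of 77.7, 74.8, 81.8 and 79.8 in WT and 64.1, 60.5, 69.4 and 72.0 in KO, again without overlap. The difference was −12.0 ± 3.54 points (limma, unadjusted p = 0.0307, adjusted p = 0.9999; exact permutation p = 0.333), and −11.0 when ranked among the shared promoter peaks. Its fold enrichment was 23.6 to 43.7 in WT and 14.8 to 16.6 in KO. Every KO library had a local background of at least 2.43 fragments at this peak, and no WT library exceeded 1.33. The summit pileups overlapped, spanning 54 to 82 (WT) and 51 to 76 (KO). The part of the background in the lower KO values was not tested. A start of the coding gene ACAA2 lies within 500 bp of a SNHG22 start, so the peak cannot be assigned to either.

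These 3 hosts, of 46, were the ones whose WT libraries all lay above all KO libraries, a pattern that 6.74% of all genes had. No host had all KO libraries above all WT libraries, against 0.299% of all genes. The 3 of 46 is near the share over all genes.

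SNHG30, host of SNORD7, had percentiles of 94.3, 97.3, 94.1 and 99.1 in WT and 69.6, 83.8, 95.2 and 92.2 in KO. Its fold enrichments were 96.1, 77.4, 55.7 and 116 in WT and 16.4, 23.8, 37.7 and 24.2 in KO. On the log2 fold scale it was the only host that limma called, at −1.77 ± 0.43 (SE, adjusted p = 0.0316), where the median over all genes was −0.57. The local background at this peak ran from 0.769 to 1.16 fragments across the WT libraries and from 3.19 to 5.60 across the KO libraries, while the summit pileup overlapped, at 104 to 231 against 75 to 217. With the log2 fold centred on its median in each library, an alternative chosen after seeing the data, no gene was called.

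**Figure D3:**
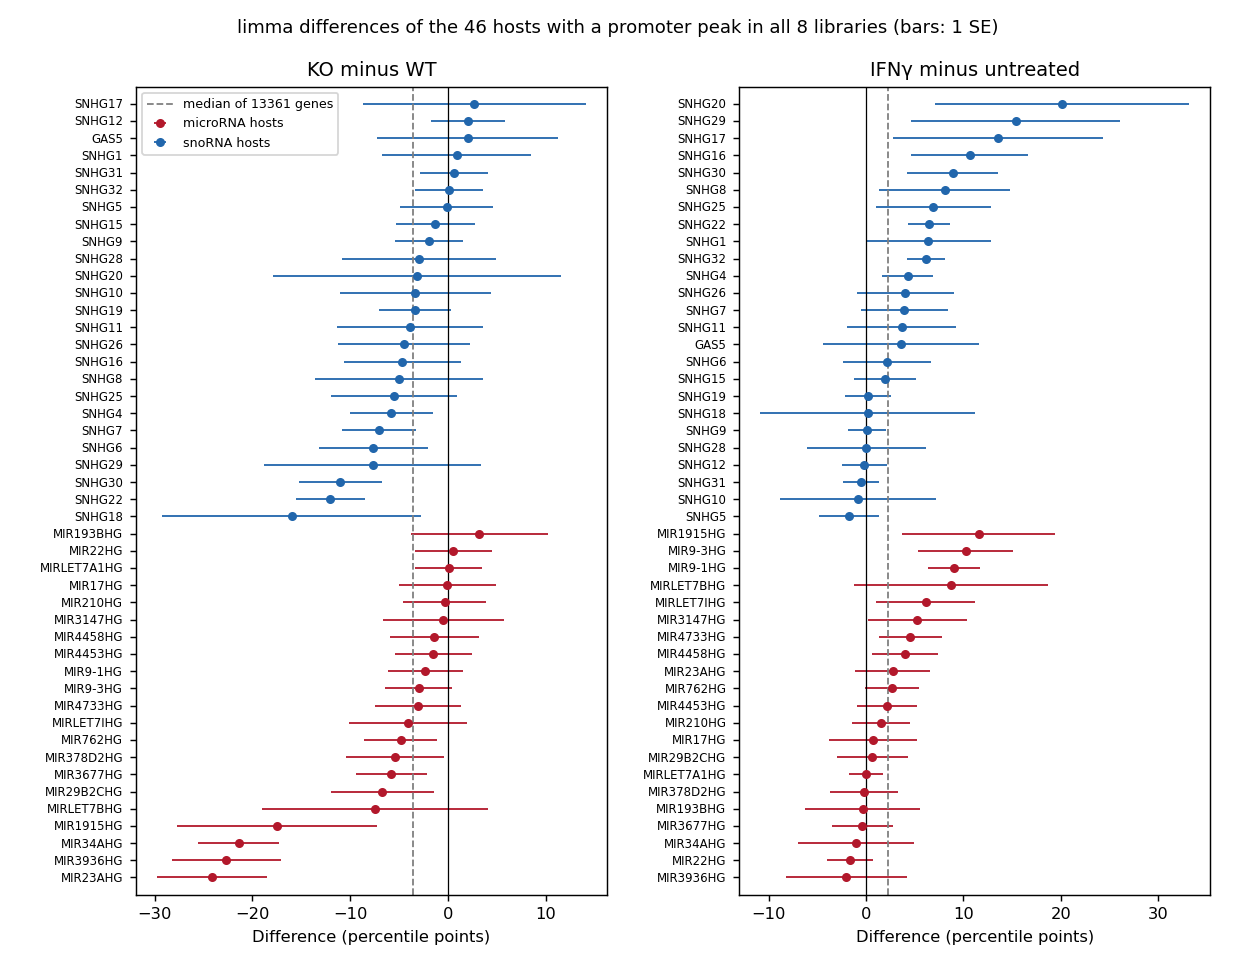
limma differences in percentile points (horizontal axis; points, estimates; bars, 1 SE) of the 46 hosts with a promoter peak in all 8 libraries, for KO minus WT (left) and IFNγ minus untreated (right); the dashed line is the median over all genes. MIR23AHG, MIR3936HG and MIR34AHG lie farthest to the left for genotype. Most snoRNA hosts lie right of 0 for IFNγ, as does the dashed line.

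The IFNγ comparison asked whether host promoters open or close with the cytokine. The number of snoRNA hosts with a promoter peak was 26.3 ± 0.957 (SD, n = 4) untreated and 26.8 ± 0.5 with IFNγ, and that of microRNA hosts was 29.0 ± 3.56 and 31.8 ± 4.11. Both differences were smaller than the spread, and with lists of equal length that of microRNA hosts was −1. limma, with genotype as a covariate, called 0 genes (0%) at an adjusted p under 0.05, and 330 genes (2.47%) had an unadjusted p under 0.05. These included 3 hosts, SNHG22, SNHG32 and MIR9-1HG. On log2 fold enrichment 3 genes were called, none of them a host. The median difference was 3.94 points over snoRNA hosts, 2.13 over microRNA hosts and 2.22 over all genes. Above 0 were 21 of 25 snoRNA hosts and 14 of 21 microRNA hosts, like 73.1% of all genes. This upward shift also depended on the peaks ranked. Among only the promoter peaks present in all 8 libraries, the median over all genes was −1.15.

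SNHG32, host of SNORD48 and SNORD52 in the major histocompatibility complex on chromosome 6, had percentiles of 77.6, 81.4, 80.1 and 81.0 in untreated WT_4, WT_5, KO_C5 and KO_D2, and 87.3, 86.0, 85.5 and 86.0 in the same clones with IFNγ. All 4 clones were higher with IFNγ, by 4.61 to 9.70 points. The difference was 6.16 ± 1.93 points (limma, adjusted p = 0.9997; exact permutation over 70 assignments, p = 0.0286, the smallest they allow). Its fold enrichments overlapped, at 28.2 to 42.0 untreated and 30.7 to 42.1 with IFNγ.

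MIR9-1HG, host of miR-9 on chromosome 1, had 76.7, 82.8, 74.4 and 76.7 untreated and 88.2, 85.5, 83.3 and 89.6 with IFNγ, higher in 4 of 4 clones by 2.77 to 12.9 points. The difference was 9.03 ± 2.63 points (limma, adjusted p = 0.9997; exact permutation p = 0.0286). Its fold enrichments overlapped, at 26.1 to 42.2 untreated and 32.4 to 43.0 with IFNγ. Its summit lay at −624 bp from the nearest annotated TSS, counted negative upstream, and its strongest peak did not overlap its RefSeq promoter window. With sign changes within the 4 clones in place of the 70 assignments, the exact p was 0.125 for both hosts, the smallest that this pairing allows.

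SNHG32 and MIR9-1HG were the 2 of 46 hosts whose IFNγ libraries all lay above the untreated ones, against 0.906% of all genes. No host had the opposite order, against 0.0748% of all genes. Neither passed the adjustment over all genes.

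**Figure D4:**
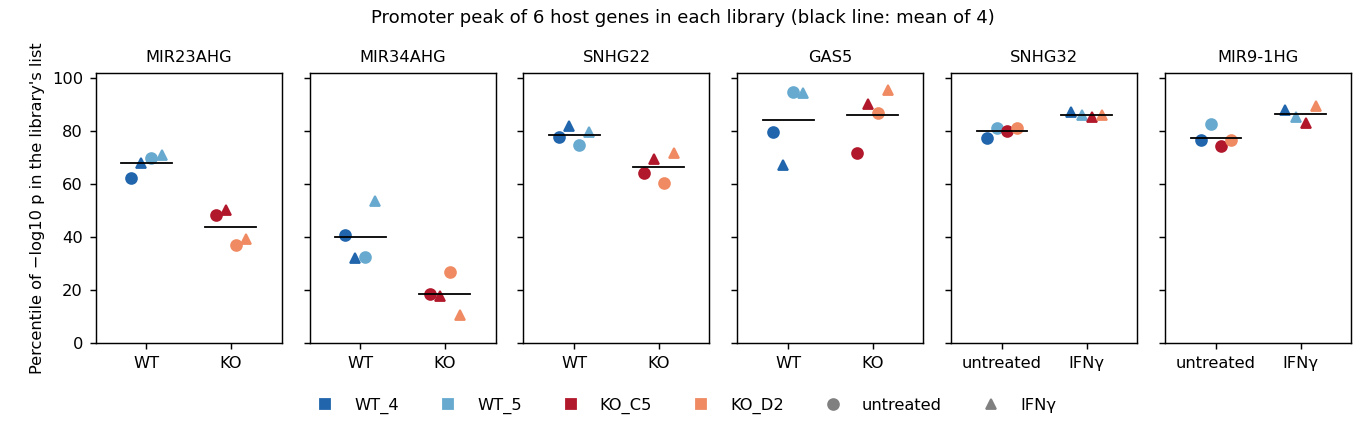
Percentile (vertical axis, 0 to 100) of the promoter peak of MIR23AHG, MIR34AHG, SNHG22 and GAS5 by genotype and of SNHG32 and MIR9-1HG by treatment; each point is a library, coloured by clone, circles untreated and triangles IFNγ, and the line is the mean of 4. The first 3 genes and the last 2 separate without overlap, and GAS5 overlaps.

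The difference between the IFNγ effects of KO and WT clones was tested on the 4 clone differences. limma called 0 genes (0%) at an adjusted p under 0.05, and 1249 genes, 9.35%, had an unadjusted p under 0.05, among them GAS5, SNHG17 and MIR3147HG, the last named after its values were seen. On log2 fold enrichment 1 gene was called, not a host. For SNHG17 the percentile moved by −6.58 in WT_4, 2.05 in WT_5, 38.7 in KO_C5 and 20.2 in KO_D2 (interaction 31.7 ± 8.37 points, limma adjusted p = 0.483). For MIR3147HG it moved by −4.15, 0.747, 12.5 and 12.0 (13.9 ± 3.93, limma adjusted p = 0.487). In both genes the KO clones moved up and the WT clones moved less or down. The median interaction was 8.43 points over snoRNA hosts, 3.499 over microRNA hosts and 5.12 over all genes. Both WT clones moved one way and both KO clones the other at 4 of the 46 hosts (GAS5, SNHG15, SNHG26 and MIR4453HG), and at 9.77% of all genes.

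Presence itself varied at microRNA hosts and hardly at snoRNA hosts, none of which differed by 2 or more libraries between groups. Of the 42 microRNA hosts with a peak in at least 1 library, 5 had a peak in at least 2 more WT than KO libraries and none the reverse. Over the 20983 genes with any promoter peak these shares were 6.87% and 0.91%. Between treatments, 7 were present in IFNγ libraries 2 or more times oftener than in untreated ones and 2 the reverse, against 6.22% and 1.01% of genes.

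MIR137HG, host of miR-137, a regulator of neuronal differentiation, had a peak in all 4 WT libraries (percentiles 44.5, 33.4, 35.9 and 51.5) and in KO only with IFNγ (12.5 and 13.1). In IFNγ-treated WT_5 the peak spanned chr1:98045414-98046338 (GRCh38), which covers the miR-137 hairpin itself at chr1:98046070-98046171. Its summit, at 98045525, lay outside the hairpin, and the median width of the MIR137HG peak over its libraries was only 305 bp. MIR100HG, host of miR-100, let-7a and miR-125b, had the same pattern, with 36.6, 30.6, 20.8 and 51.0 in WT and 26.4 and 33.5 in IFNγ-treated KO_C5 and KO_D2. Both untreated KO libraries, which were among the 3 shortest lists, lacked both peaks.

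MIR181A2HG, MIR7-3HG and MIR222HG had a peak in untreated WT_5, IFNγ WT_5 and both IFNγ KO libraries. In that order the percentiles were 39.4, 45.7, 10.1 and 35.2 for MIR181A2HG, host of the miR-181 pair. They were 54.7, 49.7, 40.8 and 39.9 for MIR7-3HG, host of miR-7, and 28.7, 16.4, 16.2 and 42.0 for MIR222HG, host of miR-221 and miR-222. These 4 libraries had the 4 longest lists.

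MIR3142HG, which carries miR-146a, a feedback inhibitor of innate immune signalling, had 11.6 in untreated WT_4, 1.93 in untreated KO_D2 and, with IFNγ, 10.6 and 30.2 in WT_4 and WT_5 and 31.8 and 44.5 in KO_C5 and KO_D2. MIR181A1HG had 27.8 in IFNγ WT_5 and 13.1 in IFNγ KO_C5 and no other peak. All 4 IFNγ libraries had a peak at MIR3142HG, while 2 of the 4 untreated ones lacked it.

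The reverse order was seen for MIR3663HG, with 57.8, 57.6, 44.7 and 47.6 in the untreated libraries and only 57.4 in WT_5 and 45.7 in KO_C5 with IFNγ. MIR1-1HG, which carries the muscle microRNAs miR-1 and miR-133a, had 37.6 and 4.07 in untreated WT, 16.4 in untreated KO_C5 and 12.3 in IFNγ WT_5. MIR3667HG had 11.5 and 17.1 in the WT_5 libraries, and MIR663AHG 25.2 and 2.62 in the WT_4 libraries, and neither had a KO peak. The peaks of these last 3 hosts were all at a percentile of 37.6 or lower.

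Cut to equal length, the lists left 1 of these hosts with 2 or more WT libraries over KO, MIR137HG with 2 WT and 0 KO libraries, where 4.19% of 18379 genes met this rule. The opposite rule, KO over WT, was met by 2.06% of genes and by 3 hosts, MIR3142HG with 2 KO and 0 WT libraries, MIR130AHG and SNHG3. None of the 7 kept 2 or more IFNγ libraries over untreated, a rule met by 3.68% of genes and by MIR3681HG. Untreated over IFNγ was met by 4.24% of genes and by 4 hosts, MIR3663HG with 4 untreated and 2 IFNγ libraries, MIR1-1HG, MIR34AHG and MIR3936HG. The hosts that met these rules only in lists of equal length were named after their values were seen. The number of microRNA hosts with a peak was then 23 to 27 in every library, against 26 to 37 in the full lists.

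Genes that make or act on the small RNAs were read from fixed lists. Of the 16 genes for snoRNP proteins and assembly factors, 9 carried a promoter peak in every library, with a median mean percentile of 87.0, and the other 7 in some. The 13 genes of microRNA processing all had one in all 8 libraries (median 83.3), and 8 of the 10 genes of nonsense-mediated decay did (median 79.4). None of the 30 genes with a peak in all 8 passed limma in either direction for genotype or IFNγ. The median KO minus WT difference was −2.02, −0.231 and −4.55 points for the 3 lists in that order, and the median IFNγ difference 2.13, 0.596 and 3.68, beside −3.61 and 2.22 over all genes.

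In the snoRNP list, NOP10, an H/ACA core protein, and NUFIP1, an assembly factor, had a peak only in the 2 WT_5 libraries and both IFNγ KO libraries, at percentiles of 34.3 to 61.3 and 26.4 to 58.8. GAR1, the other H/ACA core protein that differed, lacked a peak in untreated WT_4 and KO_C5 and ranged from 15.9 to 62.8 elsewhere. DBR1, the lariat debranching enzyme, had 31.3 in untreated WT_4 and 19.3, 27.1, 0.767 and 12.5 in the IFNγ libraries of WT_4, WT_5, KO_C5 and KO_D2. ZNHIT3, an assembly factor, had 85.5 to 92.0 in WT and 73.2 to 85.1 in KO.

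In the decay list, UPF3A had 82.3 to 86.8 in WT and 70.1 to 81.0 in KO, UPF3B lacked a peak in untreated WT_4 and KO_C5, and SMG8 had one in 4 WT libraries and 1 KO library. These 8 genes were named by the rule on presence or overlap used for the hosts, which all genes met at the shares given with the hosts.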

How the data were processed

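FAIRE-seq was analysed from 8 peak lists, 1 per library. Per the labels and the study's methods, the authors trimmed reads with Trimmomatic, aligned them to GRCh38 with Bowtie2 2.2.5, filtered them on mapping quality (SAMtools 1.14), and ran MACS2 2.2.7.1 on every library separately. The paper names input DNA beside free chromatin among the material for FAIRE-seq libraries. Whether peak calling used it as a control, and whether duplicates were removed, is not given in the sources used here. The deposited values are a fold enrichment (a ratio to the local background), a −log10 p-value and a −log10 q-value; the deposited integer score was not used. The paper gives a range of read numbers over its samples but not the depth of each library, so no counting interval was computed.

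TSS came from GENCODE release 44. Each peak's percentile is the mean rank of its −log10 p in its list. Local background and summit pileup were solved from fold and p. Tests were limma 3.58.1 (R 4.3.3) with Benjamini-Hochberg adjustment over all 13361 genes, and exact permutation tests. On simulated shifts, limma was tested first. Hosts given in every library are GAS5, the 6 highest-ranked of each class, those differing by 2 or more libraries in presence, those called by limma, and those whose groups did not overlap. The hosts and lists were chosen with earlier results of these data known. The labels pair the untreated with the IFNγ library of each clone, and over genes their deviations from the group means correlated at 0.624 in WT and 0.426 in KO. Separate cultures are not stated beyond the clones. The p-values for genotype and for the interaction measure the spread between the clones of a genotype. Those for IFNγ measure the spread between the 8 libraries, and the main IFNγ fit left out the clone pairing.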

Additional observations from a re-analysis of the deposited data

Results flagged for a closer look

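At 4 hosts both WT clones moved one way with IFNγ and both KO clones the other, which 9.77% of all genes did. GAS5 moved by −12.4 points in WT_4, −0.615 in WT_5, 18.6 in KO_C5 and 8.74 in KO_D2, an interaction of 20.2 ± 6.71 percentile points (SE, limma on 4 clone differences, unadjusted p = 0.0456, adjusted p = 0.532). MIR4453HG had an interaction of 9.67 (limma, adjusted p = 0.562) and SNHG26 of 8.54 (adjusted p = 0.562), in the same direction. SNHG15 had −9.90 (limma, adjusted p = 0.552), with WT_4 and WT_5 up by 6.19 and 7.58. Its moves in KO_C5 and KO_D2 were −5.60 and −0.431. The WT moves of SNHG26 were −0.262 and −0.234 points, and those of MIR4453HG were −5.09 in WT_4 and −0.314 in WT_5. The 4 of 46 hosts are near the share over all genes.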

How the results depend on the processing

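Of 130 planned recalculations, 125 moved a difference by less than the spread between replicates or a count by at most 1.5 times, among them each that left out a single library. Some of these still changed sign or reached 0. With lists of equal length the IFNγ minus untreated number of microRNA hosts turned from 2.75 to −1 and that of snoRNA hosts fell from 0.5 to 0, and with only the 5′-most TSS the KO minus WT number of snoRNA hosts turned from 0.5 to −0.25. With only the 5′-most TSS, 14 in place of 21 microRNA hosts and 22 in place of 25 snoRNA hosts had a peak in all 8 libraries. Leaving one out gave 25 to 26 snoRNA hosts and 21 to 22 microRNA hosts in every remaining library. The KO minus WT number of microRNA hosts then ranged from −4.75 to −1.75 (without IFNγ KO_C5 and without untreated KO_C5) and the IFNγ difference from 1 (without IFNγ WT_5) to 4.33 (without IFNγ WT_4). With lists of equal length the KO minus WT number of microRNA hosts turned from −3.25 to 1. limma called 30 genes for genotype, 3 for IFNγ and 1 for the interaction on log2 fold enrichment, and 0 in each other setting, the replicate block included. Genes at an unadjusted p under 0.05 depended on the libraries kept, with 388 to 978 for genotype (highest without IFNγ WT_4), 162 to 2262 for IFNγ (highest without IFNγ WT_4) and 596 to 1701 for the interaction (highest without either WT_5 library). With the replicate block (sign changes within clones), 0 hosts in place of 2 had an exact IFNγ p under 0.05, which that test cannot reach. WT and KO clones share only a number. Added after seeing the data, the 16 snoRNA hosts with no coding TSS within 500 bp gave 13 with a peak in all 8 libraries. The cause of these changes was not tested. The paper gives only a range of read numbers over its FAIRE-seq samples. The depth of each library is unknown, so a missing peak does not show closed chromatin.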
